A study of Mus musculus with 6 samples.

Results

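Neuronal activity induces transcription factors such as Fos and Egr1, and beside them a set of genes whose products act directly at synapses and in signaling. The 9 effector genes described here are Arc, Homer1, Nptx1, Nptx2, Bdnf, Plk2, Plk3, Rheb and Ccn1. Probe sets were chosen by gene symbol alone, as every probe set on the array that the platform annotation gives to 1 of these genes. This gave 15 probe sets of the 22626 in the deposited table, and 9 genes of 12393. Homer1 had 3 probe sets, Nptx1, Nptx2, Bdnf and Ccn1 had 2 each, and Arc, Plk2, Plk3 and Rheb had 1 each.

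The arrays compared the suprachiasmatic nucleus (SCN), the hypothalamic nucleus that holds the circadian clock, between mice given a light pulse and mice given a sham light pulse. Both groups were adult male C57BL/6 mice aged 2 to 4 months, kept in a 14:10 light/dark cycle, and no allele or agent beyond the strain is named for them. The light pulse of 2400 lux lasted 30 minutes and began 1 hour after lights off, the sham group stayed in darkness for the same time, and mice were killed when the pulse ended, at 1.5 hours after lights off. The labels give the start as Zeitgeber time 13 and describe an animal, not a pool, and the account in the methods of the study is used here. Each group had 3 Affymetrix arrays, and each array held RNA pooled from 3 mice, from which the SCN had been cut out of stained sections by laser capture. All 6 arrays had signals above 118.2, the low end of what was tested, for all 8 markers of SCN neurons, with Vip between 30271 and 64589. In RNA from captured tissue, a change in the number of cells that express a gene and a change in the RNA per cell cannot be told apart.

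Light at night reaches the SCN through fibers from the retina that release glutamate, and the calcium signal that follows in SCN neurons activates kinases and the transcription factor CREB. Genes induced in this way include those whose products change how a synapse answers to later input. Arc encodes a cytoskeleton-associated protein that removes AMPA receptors from synapses, and Homer1 encodes a scaffold that links metabotropic glutamate receptors to the postsynaptic density. Nptx1 and Nptx2 are secreted pentraxins that cluster AMPA receptors, and Bdnf is a neurotrophin that signals through the TrkB receptor. Plk2 and Plk3 are polo-like kinases, of which Plk2 weakens excitatory synapses after prolonged activity. Rheb is the small GTPase that activates the mTORC1 kinase complex, and Ccn1 is a secreted protein of the extracellular matrix that binds integrins.

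At the end of the light pulse none of the 15 probe sets passed the test against the sham light pulse, while several lay higher on every light pulse array. The test was limma, in which the variance of each probe set borrows from that of the others, on the log2 of the signal, with p-values adjusted over all probe sets tested by the Benjamini-Hochberg method and a threshold of 0.05. It called 0 of the 15, where it called 0.0677% of the probe sets kept for testing and 0.0354% of all probe sets as higher, and 0% of either as lower. Adjusted p for the 15 ran from 0.96 to 0.99. At an unadjusted p under 0.05 limma gave 5 of the 15 as higher and 0 as lower, beside 2.11% higher and 2.21% lower among the kept probe sets, and 2.86% higher and 1.85% lower among all probe sets. The 5 belonged to Arc, Nptx1, Nptx2, Plk2 and Ccn1. With the Cyber-T test, a Bayesian test named in the methods of the study, 0 were called and 6 had an unadjusted p under 0.05. The share of all probe sets at that p with Cyber-T is not given here, so the 6 cannot be set beside it. All light pulse signals lay above all sham light pulse signals at the same 5 probe sets and below them at 0, beside 6.68% above and 3.64% below among all probe sets. The log2 fold change, light pulse over sham light pulse, was above 0 for 14 of the 15, beside 54.8% of all probe sets and 50.1% of those kept, and above 1 for 8, beside 15.1%. The count of 5 with an unadjusted p under 0.05 was 2 without light pulse replicate 2, 2 without light pulse replicate 3, 3 without sham light pulse replicate 1 and 3 without sham light pulse replicate 3. For these fits too, the share of all probe sets is not given here.

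Most of these genes had low signals. A probe set was kept for testing if its rank 3 signal over the 6 arrays was among the highest, and the lowest rank 3 signal kept was 118.2. Of the 15 probe sets, 3 were kept (Nptx1 1434877_at, Plk2 and Rheb), where the filter kept 45.7% of all probe sets. The other 12 were read from a fit of all probe sets. Of the 15, 7 reached a signal of 118.2 on no array, and 12 reached it on no sham light pulse array. The standard error of the log2 fold change ran from 0.74 to 1.38 over the 12 and from 0.23 to 0.42 over the 3 kept.

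Low signals as a whole were also higher on the light pulse pools. Among all probe sets that the filter left out, 58.7% had a log2 fold change above 0 and the median was 0.242. Among the 12 left-out probe sets of the effector genes, 11 lay above 0 and the median was 1.12. An unadjusted p under 0.05 was found for 3 of the 12, all higher, beside 3.53% of all left-out probe sets. A log2 fold change above 1 was found for 7 of the 12, beside 25.7% of all left-out probe sets, and the groups did not overlap, with the light pulse higher, for 3 of the 12, beside 7.58%. Quantile normalization lowered the median of all left-out probe sets to 0.011, and under it 13 of the 15 effector probe sets lay above 0, against 14 of 15 on the deposited scale. The median log2 fold change over the 15 was 0.80 with quantile normalization and 1.00 without it. The part of this shift in the values of single genes was not tested.

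**Figure D1:**
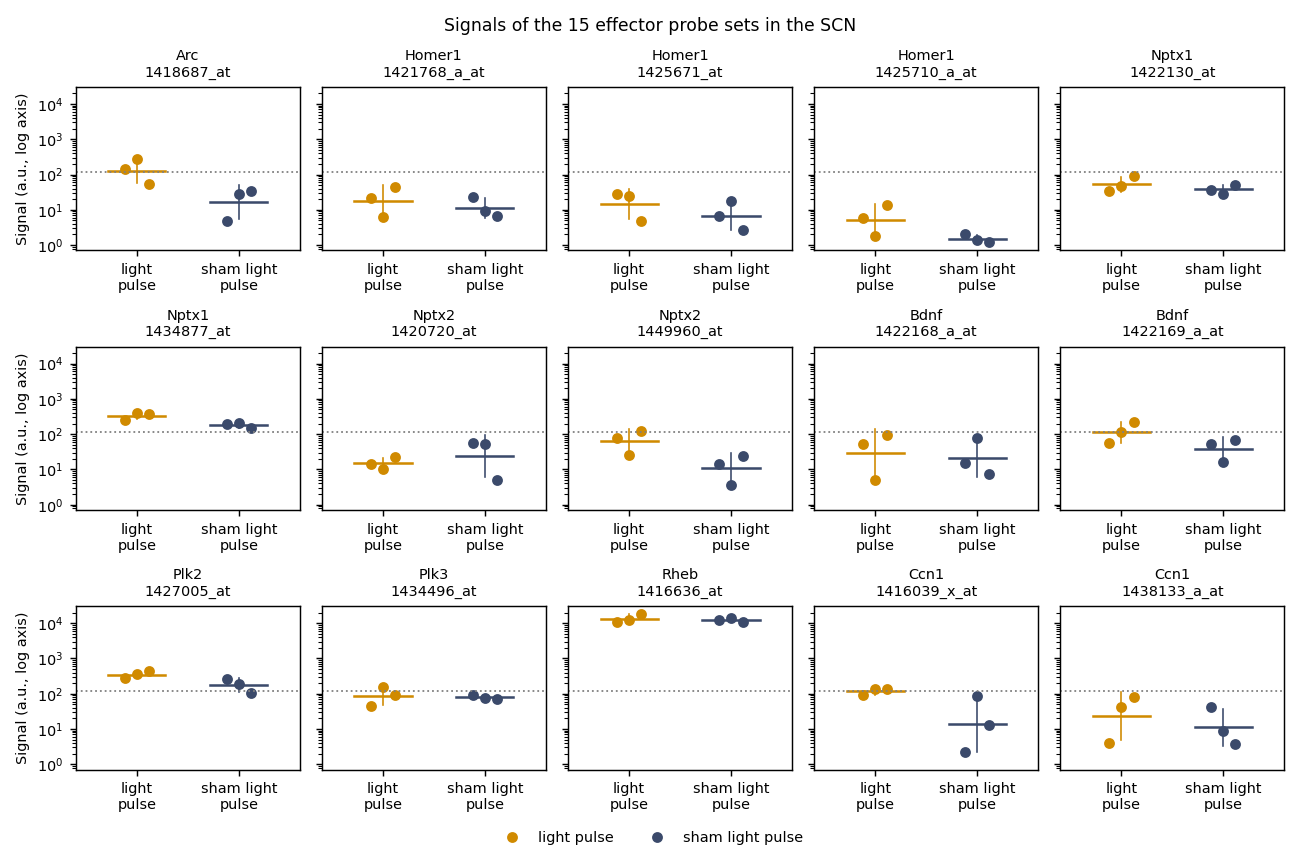
Signals in arbitrary units on a log axis for the 15 probe sets of the 9 effector genes, with 1 point per array (3 light pulse and 3 sham light pulse pools, replicates 1 to 3 in order), horizontal bars at the mean and vertical bars for the SD of the log2 signals. The dotted line marks 118.2, below which a rank 3 signal was left out. Rheb lies far above it on every array, Nptx1 1434877_at and Plk2 lie around or above it, and most points of the other probe sets lie under it.

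Arc had the smallest unadjusted p of the 15 probe sets. Its signals (1418687_at) were 141.2, 285.0 and 54.8 on the light pulse pools, against 4.7, 27.6 and 34.9 on the sham light pulse pools. All light pulse signals lay above all sham light pulse signals, and light pulse replicate 3, the lowest of its group, exceeded the highest sham light pulse signal by less than the range of either group. The sham light pulse signals lay above 9.7%, 28.1% and 33.1% of the probe sets of their arrays, so that the basal Arc signal was in the lower part of each array. The light pulse signals lay above 57.5%, 70.2% and 35.7% of the probe sets. The log2 fold change was 2.98 (standard error, SE, 1.06), a 7.87-fold ratio of geometric means with a 95% confidence interval from 1.68 to 36.9, and it was not called by limma (adjusted p = 0.963, unadjusted p = 0.0116). An offset of 50 before the log2 reduced the log2 fold change of Arc to 1.41, and leaving out single arrays gave 2.07 (without sham light pulse replicate 1) to 3.60 (without light pulse replicate 3).

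The 3 genes with the pattern most like that of Arc over the 6 arrays, after each was centred on its own mean, were Hspa1l, a heat shock protein gene, Slc37a1, a sugar phosphate transporter gene, and Cdsn, the corneodesmosin gene. Their root mean square log2 difference from Arc was 0.52, 0.52 and 0.56. They were found among 12384 genes with 6 arrays each and had low signals. Hspa1l had signals of 51.5, 56.6 and 11.3 on the light pulse pools and of 2.1, 7.4 and 5.6 on the sham light pulse pools. With so few arrays a match of this closeness describes the arrays alone.

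Homer1 had low signals at all 3 probe sets, and none reached 118.2 on any array. The probe set 1425710_a_at had signals of 5.7, 1.8 and 13.8 on the light pulse pools and of 2.0, 1.4 and 1.2 on the sham light pulse pools, with overlapping groups. Its log2 fold change of 1.80 (SE 0.88, unadjusted p = 0.0548) came from signals that on the sham light pulse pools lay above 0.1% to 1.5% of all probe sets. At 1425671_at the signals were 28.7, 24.3 and 4.9 on the light pulse pools and 6.9, 17.4 and 2.7 on the sham light pulse pools. At 1421768_a_at they were 21.7, 6.1 and 45.8 on the light pulse pools and 23.6, 9.3 and 6.9 on the sham light pulse pools. The groups overlapped at both, and the log2 fold changes of 1.13 (SE 1.22) and 0.67 (SE 1.23) had intervals that included 0. With an offset of 50 the log2 fold changes of the 3 probe sets ran from 0.14 to 0.22. With 1 array left out, 1425710_a_at gave 1.10 (without light pulse replicate 3) to 2.57 (without light pulse replicate 2), 1425671_at gave 0.46 (without sham light pulse replicate 3) to 1.94 (without light pulse replicate 3), and 1421768_a_at gave 0.00 (without light pulse replicate 3) to 1.46 (without light pulse replicate 2). Homer1 has long isoforms and a short one that activity induces, and which of them each probe set reads is not given in the sources used here.

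The secreted effectors gave unlike values at their own probe sets, and differences between probe sets were not tested. Nptx1 was kept for testing at 1434877_at, with signals of 254.1, 405.2 and 366.9 on the light pulse pools and of 194.9, 204.1 and 149.1 on the sham light pulse pools. The groups did not overlap, and all 6 signals lay above 118.2. The mean signal was 342 ± 78.6 after the light pulse and 183 ± 29.5 after the sham light pulse (SD, n = 3 arrays each). The log2 fold change was 0.89 (SE 0.37), or 1.85-fold with an interval from 1.06 to 3.24, and did not pass (adjusted p = 0.960 from limma, unadjusted p = 0.0326). Non-overlapping groups were found for 5.62% of the kept probe sets with the light pulse higher and for 4.46% with it lower. The second Nptx1 probe set, 1422130_at, had signals of 34.7, 46.0 and 90.9 on the light pulse pools and of 36.7, 29.0 and 50.5 on the sham light pulse pools, which overlapped, and its log2 fold change was 0.48 (SE 0.96), or 0.08 without light pulse replicate 3 and 0.78 without light pulse replicate 1.

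Nptx2, also known as Narp, pointed in opposite directions at its 2 probe sets. At 1449960_at the signals were 77.4, 25.2 and 122.3 on the light pulse pools, against 13.9, 3.7 and 24.5 on the sham light pulse pools. The groups did not overlap, but light pulse replicate 2 and sham light pulse replicate 3 differed by little. The log2 fold change was 2.52 (SE 1.20, adjusted p = 0.963 from limma, unadjusted p = 0.0496), with 0.90 after an offset of 50 and 1.75 without sham light pulse replicate 2. At 1420720_at the signals were 14.2, 10.4 and 22.1 on the light pulse pools and 56.3, 51.2 and 5.0 on the sham light pulse pools. The groups overlapped there, and the log2 fold change of -0.71 (SE 1.26) was the only one of the 15 below 0. Leaving out sham light pulse replicate 3 gave -1.86, and leaving out replicate 1 of that group gave -0.11.

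Bdnf had signals at 1422169_a_at of 57.1, 115.9 and 223.7 on the light pulse pools, against 51.4, 15.9 and 67.7 on the sham light pulse pools. The lowest light pulse signal lay below the highest sham light pulse signal, so the groups overlapped. Its log2 fold change was 1.58 (SE 0.88), with an interval from -0.27 to 3.43 and an unadjusted p of 0.0891 from limma. It was 0.95 without sham light pulse replicate 2, 1.09 without light pulse replicate 3 and 0.88 with an offset of 50. At 1422168_a_at the signals were 53.8, 5.0 and 97.4 on the light pulse pools and 15.6, 76.9 and 7.3 on the sham light pulse pools. The arrays of each group spread over more than the difference between the groups, and the log2 fold change was 0.53 (SE 1.34), or -0.33 without light pulse replicate 3 and -0.22 without sham light pulse replicate 3. Both Bdnf probe sets were highest among the light pulse pools on replicate 3.

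Ccn1, also known as Cyr61, had a log2 fold change above that of Arc with the main settings. It lay below that of Arc with an offset of 50 and as a ratio of arithmetic means. The same held when light pulse replicate 3, sham light pulse replicate 1 or sham light pulse replicate 3 was left out. The values come from a probe set whose name ending (_x_at) marks probes shared with other sequences. The signals of 1416039_x_at were 91.3, 137.0 and 133.6 on the light pulse pools, against 2.3, 83.7 and 12.8 on the sham light pulse pools. The light pulse pools lay close together and the sham light pulse pools apart, and sham light pulse replicate 2 came near the lowest light pulse signal. This gave a log2 fold change of 3.14 (SE 1.20), or 8.79-fold with an interval from 1.54 to 50.2 (adjusted p = 0.963 from limma, unadjusted p = 0.0173). It was 1.86 without sham light pulse replicate 1, 4.45 without sham light pulse replicate 2, 1.87 as a ratio of arithmetic means and 1.16 with an offset of 50. The second Ccn1 probe set, 1438133_a_at, had signals of 4.0, 42.7 and 79.5 on the light pulse pools and of 41.3, 8.9 and 3.7 on the sham light pulse pools. These overlapped, with a log2 fold change of 1.11 (SE 1.38) that ran from 0.24 (without light pulse replicate 3) to 2.39 (without light pulse replicate 1), and across the sham light pulse pools the 2 probe sets ranked the arrays differently.

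Vascular cells also express Ccn1, and markers of endothelial cells and pericytes gave lower summed signals after the light pulse. The summed signal of 7 such markers was 2618 to 3124 on the light pulse pools and 3568 to 5260 on the sham light pulse pools. Of the 7, 4 were kept. Of these 4, limma called 0 and gave 1 as lower at an unadjusted p under 0.05 (Flt1), and all 4 log2 fold changes lay below 0, with a median of -0.46. Among the 3 not kept, Pecam1 and Tek lay above 0, at 0.81 (SE 1.11) and 0.17 (SE 0.76). The 2 markers with the highest signals were Rgs5 and Cldn5. Their mean signals were 1579 and 715 after the light pulse, against 2223 and 985 after the sham light pulse. Their log2 fold changes were -0.46 (SE 0.28) and -0.47 (SE 0.30). Flt1, named here after its values were seen, had mean signals of 174 and 448. Its log2 fold change was -1.55 (SE 0.48, adjusted p = 0.960 from limma). Pecam1 and Kdr did not reach 118.2 on any array. The part of these cells in the Ccn1 signal was not tested. A lower sum was also found for general neuron markers, where it came mostly from Snap25. The summed signal of 5 general neuron markers was 5848.5 to 7054.5 on the light pulse pools and 7450.7 to 9819.9 on the sham light pulse pools. Of these 5, 4 were kept and 2 lay above 0, Eno2 at 0.01 (SE 0.35) and Stmn2 at 0.09 (SE 0.37). Snap25 had -0.63 (SE 0.24, adjusted p = 0.960 from limma). Mean Snap25 signals were 3381 on the light pulse pools and 5340 on the sham light pulse pools. In the same order, the means were 2416 and 2510 for Eno2 and 596 and 556 for Stmn2. They were 91.3 and 106.4 for Gad2 and 72.4 and 96.2 for Syt1. The sums of the 8 markers of SCN neurons overlapped, at 71608 to 94252.5 and 60788.2 to 72053.2.

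Plk2 was kept for testing and lay higher on all light pulse pools. Its signals (1427005_at) were 276.1, 361.6 and 428.8 on the light pulse pools, against 266.3, 188.4 and 106.1 on the sham light pulse pools. The groups did not overlap, with light pulse replicate 1 just above sham light pulse replicate 1. The mean signal was 356 ± 76.5 after the light pulse and 187 ± 80.1 after the sham light pulse (SD, n = 3 arrays each). The log2 fold change was 1.00 (SE 0.42), or 2.00-fold with an interval from 1.07 to 3.74, and did not pass (adjusted p = 0.960 from limma, unadjusted p = 0.0319). Without sham light pulse replicate 3 it was 0.64. Plk3 (1434496_at) had signals of 46.1, 151.4 and 92.4 on the light pulse pools and of 94.9, 77.2 and 69.4 on the sham light pulse pools. The light pulse signals lay on both sides of the sham light pulse signals, and the log2 fold change was 0.11 (SE 0.74), with an interval from -1.43 to 1.66. It was -0.29 without light pulse replicate 2 and -0.12 with quantile normalization.

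Rheb gave a high signal on all 6 arrays. A signal also depends on the probes, so levels of different genes are not set against each other. Its signals (1416636_at) were 10713, 12440 and 18434 on the light pulse pools, against 12113, 14478 and 10759 on the sham light pulse pools. Between 98.1% and 98.9% of the probe sets of an array lay below it, and the groups overlapped. The mean signal was 13862 ± 4052 after the light pulse and 12450 ± 1882 after the sham light pulse (SD, n = 3 arrays each). Light pulse over sham light pulse gave a log2 fold change of 0.13 (SE 0.23), and the interval of the ratio, from 0.776 to 1.54, is the narrowest of the 15. Without light pulse replicate 3 the log2 fold change of Rheb was -0.10.

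**Figure D2:**
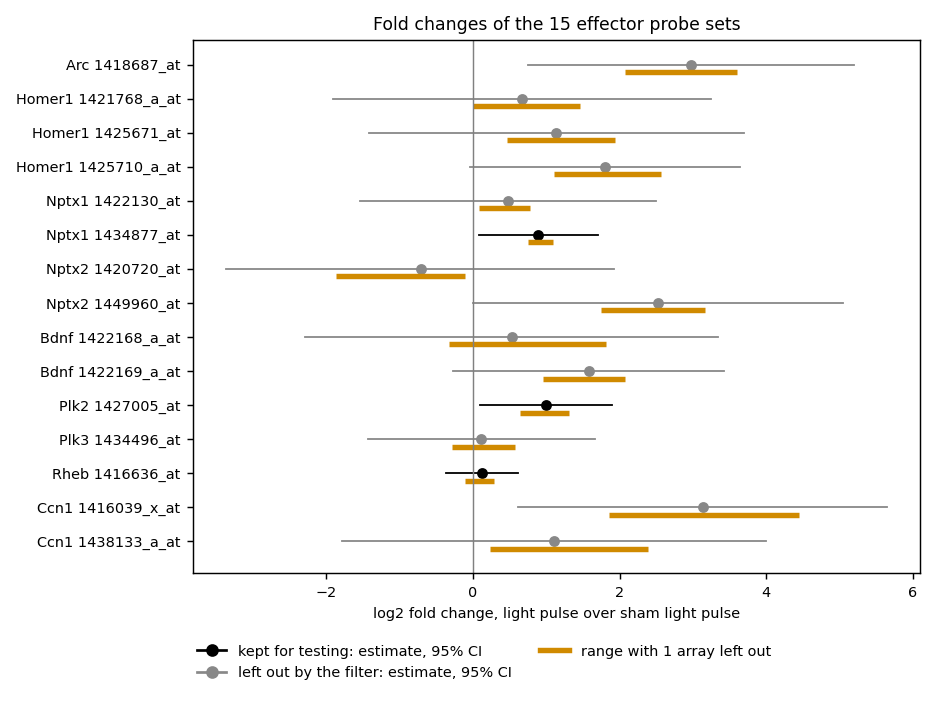
Log2 fold changes of the 15 effector probe sets, light pulse over sham light pulse, with 95% confidence intervals from limma (black for the 3 kept for testing, grey for the 12 left out by the filter) and the range of the estimate with 1 array left out (orange). With 1 array left out the estimates run from 2.07 to 3.60 for Arc, from 0.64 to 1.31 for Plk2 and from -0.10 to 0.29 for Rheb, and Rheb has the narrowest interval, around 0.13.

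Light pulse replicate 3 stood apart from the other arrays and carried many of the highest effector signals. Its median correlation with the others (0.898) was the lowest of the 6, with sham light pulse replicate 2 close at 0.905. The remaining arrays had 0.917 to 0.922. Light pulse replicate 3 also had the highest median signal, at 106.1. The median was 87.9 to 99.4 on the other light pulse pools and 83.6 to 87.8 on the sham light pulse pools. The Ttr signal of light pulse replicate 3 was 110323, where no other array exceeded 295.6. Ttr encodes transthyretin and marks choroid plexus, the tissue that secretes cerebrospinal fluid. The summed signal of 4 choroid plexus markers lay between 129.8 and 110638 after the light pulse and between 200.0 and 308.5 after the sham light pulse. The highest sum was nearly all Ttr, the only 1 of the 4 that was kept. Kl, Folr1 and Kcne2 had low signals of 72.7, 147.3 and 95.6 on light pulse replicate 3, each its highest of the 6 arrays. Of the 15 effector probe sets, 10 had their highest light pulse signal on this array, where 38.2% of all probe sets and 40.6% of left-out ones did. Arc, Nptx1 1434877_at and Ccn1 1416039_x_at were not among the 10. Without light pulse replicate 3, 12 of the 15 lay above 0, with a median of 0.83. Among all left-out probe sets 56.3% did, with a median of 0.206. The 15 include 3 kept probe sets, and the share of all probe sets without this array is not given here. The log2 fold changes were then 3.60 for Arc, 0.83 for Nptx1 1434877_at, 2.03 for Nptx2 1449960_at, 0.86 for Plk2 and 3.05 for Ccn1 1416039_x_at. All 5 of these lay above 0, and none was called by limma. The part of choroid plexus tissue in the other values of this array was not tested.

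Promoter sequences from RefSeq (GRCm38.p6) were at hand for 6 of the 9 genes, as 13 windows of 250 bases before and 50 after an annotated start, 7 of them for Bdnf and 2 for Homer1. The cAMP response element (CRE), the site that the light-activated factor CREB binds, was searched on both strands as TGACGTCA, its half-site as TGACG, which the full element contains, and the TATA box as TATAA. The full CRE was found in 1 of the 13 windows, that of Plk2, and in 1.79% of all 32851 windows of the same length. The half-site was found in 6 of the 13, beside 20.8% of all windows, and TATAA in 2 of the 13, beside 24.9%. The 6 with a half-site belonged to Homer1 (1 of its 2 windows), Bdnf (1 of 7), Plk2, Plk3, Rheb and Ccn1. The CArG box, bound by serum response factor, was found in 0 of the 13, beside 1.63% of all windows. Plk2 and Ccn1 are shown because they are the genes with a window at hand whose light pulse pools lay above all sham light pulse pools at a probe set. Capitals mark the matches, which for Plk2 are the CRE that begins 62 bases before the start and a half-site in the 50 bases after it, and for Ccn1 a half-site 58 bases before the start and the TATA sequence 26 bases before it. The Plk2 window is chr13:110394794-110395093 on the plus strand, and the Ccn1 window is chr3:145649936-145650235 on the minus strand.
Plk2: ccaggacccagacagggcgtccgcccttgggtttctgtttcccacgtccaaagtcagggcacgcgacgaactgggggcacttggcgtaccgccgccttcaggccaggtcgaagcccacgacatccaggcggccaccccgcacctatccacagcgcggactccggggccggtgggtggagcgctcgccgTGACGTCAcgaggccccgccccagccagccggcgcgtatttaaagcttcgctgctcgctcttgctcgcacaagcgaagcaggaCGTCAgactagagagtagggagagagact
Ccn1: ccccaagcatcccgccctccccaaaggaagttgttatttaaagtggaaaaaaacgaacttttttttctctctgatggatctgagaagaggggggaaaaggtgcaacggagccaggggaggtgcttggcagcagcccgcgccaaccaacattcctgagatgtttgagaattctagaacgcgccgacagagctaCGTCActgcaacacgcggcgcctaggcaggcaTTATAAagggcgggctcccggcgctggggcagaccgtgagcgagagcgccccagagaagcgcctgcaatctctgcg
A match is a run of letters, and whether a factor binds there was not measured on these arrays.

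Of 14 transcription factors of the same early response 13 were measured, 5 were kept and limma called 4 as higher and 0 as lower, where it called 0.104% of the 6739 genes with a kept probe set as higher. The called genes were Fos at 4.94 (SE 0.31), Egr1 at 4.84 (SE 0.32), Egr2 at 6.59 (SE 0.88) and Nr4a1 at 3.37 (SE 0.32), and the study itself picked out genes of this list on these arrays, so that their direction is not independent evidence. Egr2 passed the filter through the light pulse pools alone, at 1890 to 2123, against 3.1 to 94.3 on the sham light pulse pools, so that its value rests on sham light pulse signals below 118.2. Jun, the fifth kept gene, had a log2 fold change of 1.19 (SE 0.37, adjusted p = 0.960 from limma). The 8 measured factors that were not kept had low signals like most effector genes. Among them Fosb had 3.55 (SE 1.20), Fosl2 1.06 (SE 0.64) and Atf3 1.04 (SE 0.83), while Egr4, Nr4a3, Junb, Egr3 and Nr4a2 ran from 0.87 to 0.07. By quantitative PCR the study reported increases after the light pulse for Fos, Egr1, Egr2, Nr4a1 and Jun. It also reported an increase for Egr3, which on these arrays had low signals and a log2 fold change of 0.20 (SE 1.23). The difference between effectors and transcription factors was not tested, since genes are not replicates of a condition.

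Of 16 other effector genes that neuronal activity is known to induce, 13 were measured and 8 kept, and limma called 0 of them. At an unadjusted p under 0.05 it gave 1 as higher and 0 as lower, beside 2.11% higher and 2.03% lower over all kept genes, and the median log2 fold change of the 8 was 0.13. That gene was Sgk1, a stress-responsive kinase, named here after its values were seen, with signals of 459.8, 493.7 and 534.4 on the light pulse pools and of 234.3, 427.1 and 201.5 on the sham light pulse pools. Its log2 fold change was 0.86 (SE 0.35). The groups did not overlap, with the light pulse higher, for 2 of the 8 (Sgk1 and Dclk1), beside 5.74% of all kept genes. Of the 2 with the highest signals, Dclk1, a microtubule-associated kinase, had 0.74 (SE 0.35), and Syt4, a synaptotagmin of secretory vesicles, had -0.19 (SE 0.29). The 8 kept genes spread from -0.81 for Plat, the tissue plasminogen activator gene, to 0.86 for Sgk1.

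**Figure D3:**
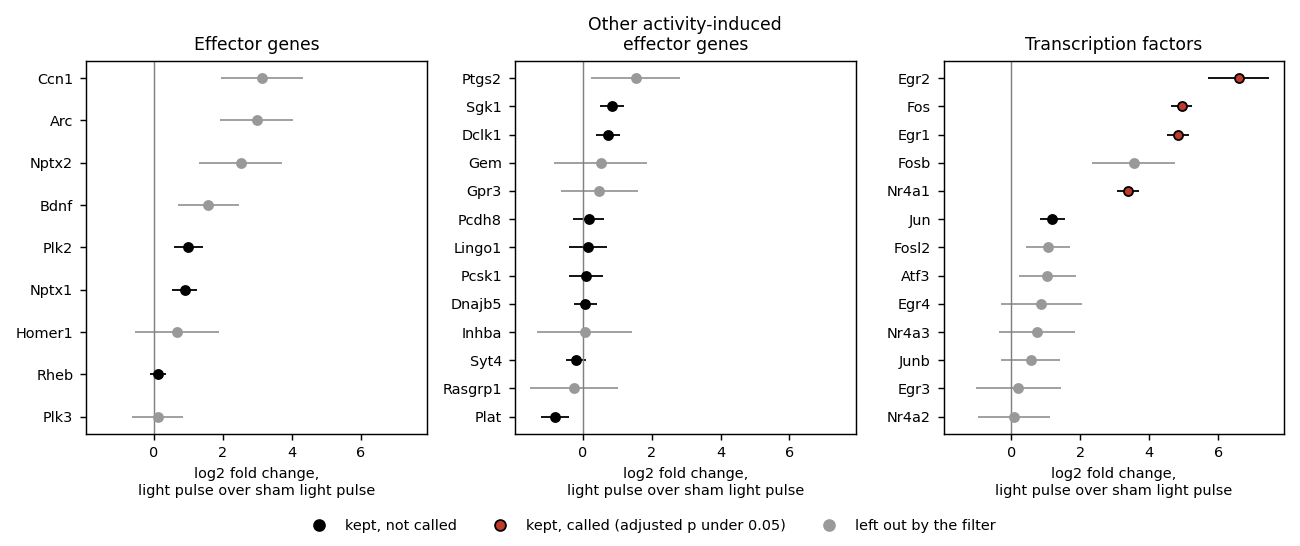
Log2 fold changes, light pulse over sham light pulse, with standard errors from limma, for the 9 effector genes, 13 other activity-induced effector genes and 13 transcription factors, each gene by its probe set with the highest mean log2 signal. Grey points were left out by the filter and red fills mark the 4 called genes, all of them transcription factors. Kept effector genes lie between -0.81 and 1.00.

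Transcripts for the receptors and partners of the effectors gave no calls, and several were not kept. Of the AMPA receptor subunits that pentraxins cluster and Arc removes, Gria1 and Gria2 were kept, with signals from 707.5 to 1335 and from 653.0 to 923.4 over the 6 arrays, and log2 fold changes of -0.06 (SE 0.33) and -0.27 (SE 0.28). The Gria2 signals did not overlap and were lower after the light pulse, which was so for 4.38% of kept genes. Gria3 and Gria4 were not kept. Of the receptors and processing enzymes of Bdnf, Ntrk2, which encodes TrkB, ranged from 1234 to 2456 with a log2 fold change of -0.15 (SE 0.30), and the low-affinity receptor gene Ngfr was not kept. The sorting receptor gene Sort1 had 0.15, the protease genes Furin and Pcsk7 had 0.73 and 0.46, and Bex3, which encodes a protein that binds the low-affinity receptor, had 0.32. Standard errors of these 4 ran from 0.22 to 0.60, and their groups overlapped.

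Of 9 Arc partners in endocytosis and at the postsynapse, 8 were kept, with a median log2 fold change of 0.25. The adaptor subunit gene Ap2m1 had 0.23 (SE 0.30), and Dnm1, the neuronal dynamin, had 0.00 (SE 0.37). Of the 8, 1 had all light pulse signals above all sham light pulse signals, beside 5.74% of kept genes. That was Dnm2, another dynamin gene, named here after its values were seen, at 0.65 (SE 0.31). Of the measured Homer relatives and Homer-binding proteins, Homer2 and Shank3, a postsynaptic scaffold, were kept, at -0.12 (SE 0.55) and -1.06 (SE 0.81). The measured and kept genes beside Plk2 and Plk3 were Plk4, a kinase of centriole duplication, at -0.91 (SE 0.45), and Rasgrf1, a Ras activator that Plk2 phosphorylates, at 0.07 (SE 0.17).

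Of 10 regulators and targets of Rheb, 6 were kept, with a median of 0.38, among them Tsc1, an inhibitor of Rheb, at -0.09 (SE 0.29) and Mtor, the kinase itself, at 0.35 (SE 0.33). Of 10 relatives and integrin receptors of Ccn1, 6 were kept, with a median of 0.28. Ccn3, a relative of Ccn1, had -0.20 (SE 0.33) and the integrin gene Itgav 0.15 (SE 0.31). Ccn2, another relative, named here after its values were seen, had light pulse signals of 191.3, 356.4 and 191.4 and sham light pulse signals of 135.7, 148.0 and 149.3, without overlap. Its log2 fold change was 0.71 (SE 0.44), and groups without overlap, with the light pulse higher, were found for 5.74% of kept genes. In none of these lists of receptors, partners, regulators and relatives did limma call a kept gene or give one an unadjusted p under 0.05.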

How the data were processed

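Laser-captured SCN was measured on Affymetrix Mouse 430A 2.0 arrays, 3 after a light pulse and 3 after a sham light pulse, with 3 mice pooled per array. The authors deposited 1 signal intensity per probe set and array, calculated with MAS5 (from the submitters' processing notes, which give no version), linear and scaled per array. Present calls were not used here. Whether pools shared mice is not stated, and p-values describe only how these pools spread. The number of arrays limits the precision. Groups and replicate numbers came from the sample titles.

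Gene names came from the platform annotation: 20380 probe sets had 1 symbol, 691 several and 1555 none. Only those with 1 symbol were named. The log2 of the signal was compared with limma 3.58.1 in R 4.3.3 (intensity trend, two-sided) over the 10340 probe sets that ranked highest by rank 3 signal, the number the study kept by present calls. Effector probe sets left out were read from a fit of all 22626. A gene with several probe sets was represented in the lists by the brightest (by mean log2 signal). Cyber-T was coded from its description (prior weight 10, window 101). Both tests were tested on simulated data. The genes named are all effector genes and transcription factors. Of the other lists they are the called genes or else the 2 with the highest mean log2 signal, and short lists in full. Some further genes, Flt1 among them, were named after their values were seen. The members, lists and tests were chosen with earlier results of these data known. The alternatives were 2 other filters, 2 other normalizations, an offset of 50, no intensity trend, Cyber-T, the replicate number as a block, arithmetic means and leaving out each array.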

Additional observations from a re-analysis of the deposited data

How the results depend on the processing

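No effector probe set passed the adjusted test under any of the alternatives run. Of 199 log2 fold changes of effector probe sets under an alternative 194 kept their sign. The exceptions were Plk3, at -0.12 with quantile normalization and -0.29 to 0.57 with 1 array left out, the second Bdnf probe set (1422168_a_at), at -0.33 to 1.81 with 1 array left out, and Rheb, at -0.10 to 0.29. The cause was not tested. The 5 effector probe sets at an unadjusted p under 0.05 became 2 to 5 with 1 array left out and 3 with the replicate number as a block. The numbers gave no sign of pairing, since deviations of arrays with the same number correlated at 0.096, -0.192 and -0.129, and the block changed no adjusted call of an effector probe set. Over the kept probe sets limma called 7 as higher, and 4 without the intensity trend. Low signal limits the 12 effector probe sets that the filter left out.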
